A study of Mus musculus with 9 samples.

Results

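The 10 genes described here encode factors that cut and polyadenylate the 3′ end of messenger RNA, or that bind the poly(A) tail afterwards: Cpsf6, Cpsf7, Nudt21, Pcf11, Cstf2, Cstf3, Papola, Fip1l1, Pabpc1 and Pabpn1. They were chosen by symbol, and all 10 were among the 13081 genes of the table and passed the filter on low values. Kidneys of wild type mice were sequenced at 3 months (young, n = 4) and at 16 months (old, n = 5), with no treatment named for either group. The study placed both groups in a cohort of C57BL/6 mice kept at one centre, and used them to see whether what it had found in Rragc-mutant mice bears on normal ageing. The titles of the young and the old libraries carry different prefixes, so age and any difference in handling between these sets cannot be told apart. The RNA came from kidney tissue as a whole, so fewer cells of a type and less RNA per cell cannot be told apart either.

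Most messenger RNA precursors are cut downstream of a hexamer, usually AATAAA in the DNA strand, which the cleavage and polyadenylation specificity factor (CPSF) recognises. Cleavage factor Im (CFIm, made of Nudt21 with Cpsf6 or Cpsf7) binds upstream and the cleavage stimulation factor (CstF) binds downstream of the cut. Cleavage factor IIm, which contains Pcf11, links cutting to the end of transcription. Poly(A) polymerase, the product of Papola, then adds the tail, Pabpn1 coats it in the nucleus and Pabpc1 in the cytoplasm. Where a gene has several such sites, the balance of these factors is known to affect which site is used. The libraries were primed with oligo(dT) and read near transcript ends, and the deposited values sum all sites of a gene, so the choice between sites was not measured here.

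Because reads come from transcript ends, the annotated ends of the 4 factors whose levels passed the test are shown. Each is the last 30 bases of the protein-coding transcript that reaches farthest (GENCODE vM21, GRCm38), 5′ to 3′ on the sense strand, with the hexamer AATAAA in capitals where a match was found:
Nudt21 (chr8:94015496-94015525, minus strand): gttatttcAATAAAaatatttaaaactgaa
Cpsf7 (chr19:10547624-10547653, plus strand): aaattgtgtAATAAActtgatgacgatgtc
Pabpc1 (chr15:36595661-36595690, minus strand): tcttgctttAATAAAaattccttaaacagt
Pabpn1 (chr14:54898140-54898169, plus strand): gaagatgaccttgatggaaaaaaaatattt
AATAAA was found on the sense strand of 55.5% of such windows over 11688 protein-coding genes of the table, and ATTAAA without it in 13.5%. The Pabpn1 window held neither, like those of Papola and Fip1l1 and 31.0% of all such windows. No match says only that these letters are not in these 30 bases.

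Values are normalised read counts, that is reads of a gene divided by the size factor of the library, and were compared after adding 1 and taking log2. Genes that reached 10 normalised counts in 4 or more libraries were tested, and those with an adjusted p-value under 0.05 are named called. Of the 10 factors, 4 differed between the ages at an adjusted p-value under 0.05 (limma, adjusted over all 12667 genes tested), against 59.7% of all genes tested. Pabpc1 and Cpsf7 were higher in old kidneys, where 29.2% of all genes were called higher, and Pabpn1 and Nudt21 were lower, where 30.5% were called lower. The values of the ages did not overlap for 3 of the 10 factors (Pabpn1, Pabpc1 and Cpsf7), against 49.0% of all genes tested. The median log2 fold change of the 10 factors was 0.01, beside -0.003 over all genes tested, where the median size was 0.56.

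**Figure D1:**
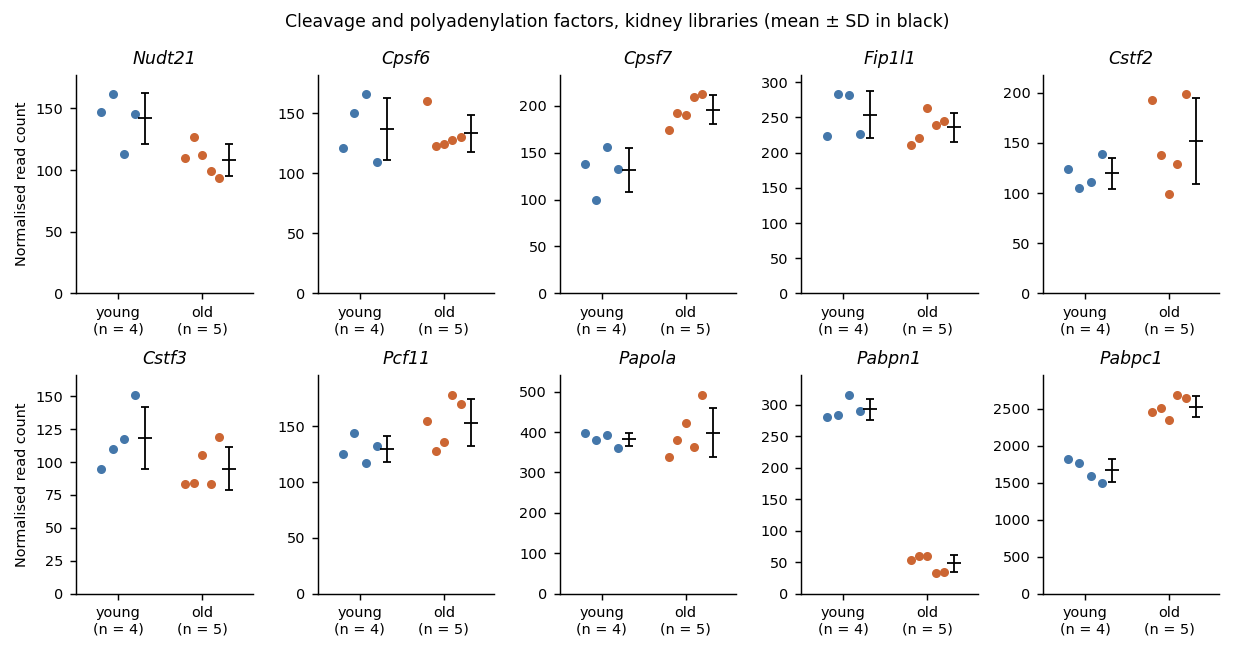
Normalised read count (y axis, from 0) of each factor in the 4 young (blue) and 5 old (orange) kidney libraries, with the mean and SD of each age in black. Pabpn1 fell from 280.1 or more in every young library to at most 59.8 in every old library, while the points of Nudt21, Cpsf6, Fip1l1, Cstf2, Cstf3, Pcf11 and Papola overlap between the ages.

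The largest difference among the factors was that of Pabpn1, which binds the growing tail in the nucleus and stimulates poly(A) polymerase. Its normalised read counts were 280.1, 284, 316 and 290 in the young libraries and 54.2, 59.1, 59.8, 32.6 and 35.01 in the old libraries. Every old library lay far below every young one. The mean fell from 292 ± 16.1 (SD, n = 4) to 48.2 ± 13.3 (SD, n = 5), which gave a log2 fold change of -2.62 ± 0.18 (standard error; adjusted p 6.97e-10 by limma), or 6.15-fold lower on the log2(normalised count + 1) scale. Only 167 of the 12667 genes tested (1.32%) had a log2 fold change this low or lower. The counts rest on 292 to 342 reads in the young and 33 to 59 reads in the old libraries.

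**Figure D2:**
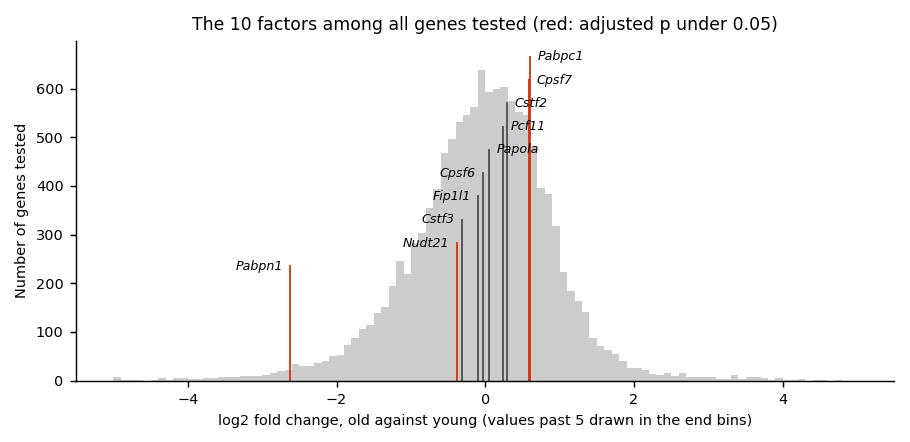
Histogram of the log2 fold change, old against young, of the 12667 genes tested (x axis: log2 fold change; y axis: number of genes), with a line for each of the 10 factors, red where the adjusted p-value was under 0.05. Pabpn1 lies in the lower tail at -2.62, and the other 9 factors lie between -0.38 and 0.60.

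How Pabpn1 could be counted is limited by its locus. It lies on chromosome 14 (54892500 to 54898169, GRCm38, plus strand), and the protein-coding read-through gene Gm20521, which joins the upstream gene Bcl2l2 to Pabpn1, covers 93.6% of the last 500 bases of the Pabpn1 transcript that reaches farthest. Of the 50-base sequences in that stretch, 92.9% also occur in Gm20521 or Gm2272. Gene counting usually assigns a read in exons of several genes to none of them. Over all annotated Pabpn1 exons the part shared with Gm20521 was 21.4%. Gm20521 was not among the genes of the table. Bcl2l2, named after its values were seen, was also lower in old kidneys, from 57.3 ± 5.29 to 37.6 ± 3.16 (SD, n = 4 and 5), or -0.59 on the log2 scale (adjusted p 0.00678 by limma). The annotation used for counting was a later release, which was not analysed here, so how far this overlap entered the fall of Pabpn1 was not tested.

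The same end of Pabpn1 is rich in A, which matters in libraries primed with oligo(dT). The window of 30 bases with the most A in the last 500 bases held 26 of them, and 1.13% of the 11688 genes had a window with as many. Runs of at least 6 A are in capitals:
Pabpn1 (chr14:54898108-54898137, plus strand): AAAAAAAgaattAAAAAAAAAAAAgaaaaa
The window ends 32 bases before the annotated end and contains the hexamer ATTAAA, which the last 30 bases do not. For Pabpc1 the richest window held 23 A, which 3.82% of genes reached, for Cpsf7 it held 20, which 11.7% reached, and for Nudt21 it held 18, which 26.8% reached. Whether priming inside these stretches contributed to any count was not tested.

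Pabpc1, which binds poly(A) in the cytoplasm and takes part in translation and in deadenylation, moved the other way. It stood at 1825, 1770, 1594 and 1489 normalised counts in the young and at 2454, 2506, 2342, 2688 and 2640.4 in the old libraries. All 5 old libraries lay above the highest young one. The log2 fold change was 0.60 ± 0.09 (standard error; adjusted p 1.56e-05 by limma), on means of 1670 ± 156 (SD, n = 4) and 2526 ± 141 (SD, n = 5). None of the last 500 bases of Pabpc1 shared a 50-base sequence with an annotated transcript of another gene. Its relative Pabpc4, a second cytoplasmic poly(A)-binding protein, fell from 474 ± 30.3 to 157 ± 27.2 (SD), or -1.60 on the log2 scale (adjusted p 8.73e-09). In Pabpc4, 55.9% of the 50-base sequences at the end of the transcript occur in other annotated genes, so its counts are uncertain.

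A ratio of genes within a library is nearly free of the size factor. The log2 ratio of Pabpc1 to Pabpc4 was 1.64 to 1.92 in the young and 3.75 to 4.47 in the old libraries, a difference of 2.20 (exact permutation test over the 9 libraries, two-sided p = 0.0159, adjusted over 10 pairs 0.0317). For Pabpc1 against Pabpn1 it was 2.33 to 2.70 in the young and 5.27 to 6.32 in the old libraries, a difference of 3.22 with the same exact p. The value 0.0159 is the smallest that 4 against 5 libraries can give, and the pairs at this value did not pass the correction when a single young library or old replicate 2 or 4 was left out (adjusted p up to 0.0714). Fewer libraries raise the smallest exact p, so this loss does not speak to the size of the differences. Without 1 library they were 2.09 to 2.27 for Pabpc1 to Pabpc4 and 3.07 to 3.34 for Pabpc1 to Pabpn1. Of the other genes that act on these proteins, Paip2, an inhibitor of Pabpc1, fell from 485 ± 31.6 to 217 ± 17.9 (SD), or -1.16 on the log2 scale (adjusted p 2.29e-08 by limma). Paip1, which stimulates translation with Pabpc1, had a log2 fold change of -0.20 and was not called (adjusted p 0.139). Paip2b, of the same list, had a log2 fold change of 0.20 and was not called either (adjusted p 0.477 by limma). In the list of poly(A)-binding proteins and their partners, 4 of 7 tested genes were called (57.1%, beside 59.7% of all genes tested), 1 higher and 3 lower, and Pabpc1l was not among the genes of the table.

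CFIm showed unequal values among its 3 subunits. Nudt21, the subunit that reads UGUA in the RNA, stood at 147, 161, 113 and 146 normalised counts in the young and at 110, 127, 113, 98.9 and 93.4 in the old libraries. Of the 5 old libraries, 4 lay below the lowest young one, and the ages overlapped. The log2 fold change was -0.38 ± 0.14 (standard error; adjusted p 0.0262 by limma). This call was lost without any of young replicates 1, 2 or 4 (adjusted p 0.0693, 0.0990 and 0.0627) and without old replicate 4 (0.0532) or 5 (0.0558). Over all 21 alternatives the adjusted p-value of Nudt21 ran from 0.00259 to 0.161. Scaling without mitochondrial genes also lost it (-0.24, adjusted p 0.161).

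Cpsf7, one of the larger subunits that pair with Nudt21, was at 138, 100, 156 and 132 normalised counts in the young and at 174, 193, 191, 210 and 212 in the old libraries. The lowest old library was above the highest young one. The mean rose from 132 ± 23.3 (SD, n = 4) to 196 ± 15.5 (SD, n = 5), which gave a log2 fold change of 0.58 ± 0.13 (standard error; adjusted p 0.00102 by limma). Its alternative Cpsf6 (chromosome 10, 117344673 to 117380015, GRCm38) was at 121, 151, 166 and 110 in the young and at 160, 123, 125, 128 and 130 in the old libraries. These values overlapped throughout, with a log2 fold change of -0.03 (95% confidence interval -0.33 to 0.28) and an adjusted p-value of 0.888.

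The log2 ratio of Cpsf7 to Nudt21 within a library was -0.68 to 0.46 in the young and 0.60 to 1.18 in the old libraries, a difference of 0.97 (exact permutation test, two-sided p = 0.0159, adjusted 0.0317). The groups did not overlap. For Cpsf6 against Cpsf7 the difference was -0.61 (exact p = 0.0476, adjusted 0.0680), and for Cpsf6 against Nudt21 it was 0.36 (exact p = 0.175, adjusted 0.194), with overlapping groups in both. Without young replicate 3 the latter was 0.56 (adjusted exact p 0.0595). The difference between Cpsf6 and Cpsf7 therefore did not pass the correction, although Cpsf7 alone was called and Cpsf6 was not, and it passed without old replicate 1 (-0.72, adjusted exact p 0.0476). Over all 80220111 pairs of genes tested, 47.0% gave ratios that did not overlap between the ages, and 5 of the 10 pairs examined here did so.

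**Figure D3:**
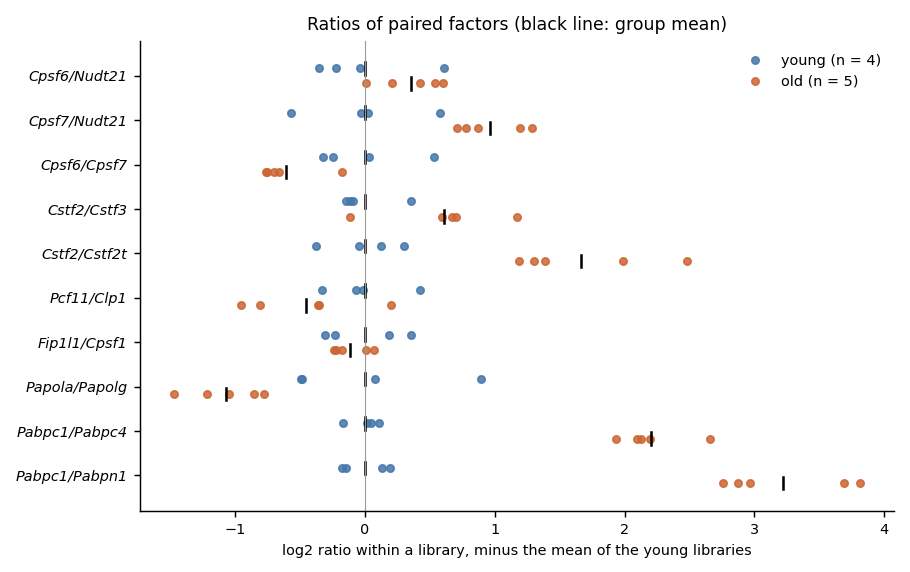
log2 ratio of 2 factors within each library, less the mean of the 4 young libraries (x axis), for 10 pairs (y axis), with young libraries in blue, old libraries in orange and group means as black lines. Old and young libraries stand apart for Cpsf7/Nudt21, Cstf2/Cstf2t, Papola/Papolg, Pabpc1/Pabpc4 and Pabpc1/Pabpn1.

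Of CstF, Cstf2 and Cstf3 did not pass the test. Cstf2, the subunit that binds the downstream GU-rich element, was at 124, 105, 111 and 139 normalised counts in the young and at 193, 138, 99.4, 129 and 198 in the old libraries. Old replicates 1 and 5 were above every young library and old replicate 3 was below every one. The log2 fold change was 0.30 (95% confidence interval -0.08 to 0.67, adjusted p 0.162 by limma), and without old replicate 3 it was 0.44 and called (adjusted p 0.0263). The relative SD of Cstf2 was 28.3% among old libraries, where counting error alone gives 8.37%, and genes with a mean of 100 to 500 normalised counts had a median of 14.4% in the old group. Cstf2 lies on the X chromosome (134059187 to 134086819, GRCm38). The labels do not give the sex of the mice, and the Y-linked gene Ddx3y was found at 125 normalised counts or more in all 9 libraries while Xist was not among the genes of the table.

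Cstf3, the scaffold of CstF (chromosome 2, 104590523 to 104665429, GRCm38), was at 94.999, 110, 118 and 151 in the young and at 83.7, 84.2, 105, 83.0 and 119 in the old libraries. Of the old libraries, 3 lay below the lowest young one. Its log2 fold change was -0.31 (95% confidence interval -0.65 to 0.03, adjusted p 0.107), and it was called without old replicate 5 (adjusted p 0.0433). The log2 ratio of Cstf2 to Cstf3 differed by 0.61 between the ages (exact permutation test, two-sided p = 0.0476, adjusted 0.0680), and by 0.79 without old replicate 3 (adjusted exact p 0.0476). The remaining genes of the complex were both lower in old kidneys, which made 2 of 4 called (beside 59.7% of all genes tested, of which 30.5% were called lower). Cstf1 fell from 82.9 ± 3.72 to 54.3 ± 10.9 (SD), or -0.63 on the log2 scale (adjusted p 0.0045). Cstf2t, a single-exon relative of Cstf2 on chromosome 19, fell from 73.8 ± 7.16 to 28.2 ± 4.72 (SD), or -1.37 on the log2 scale (adjusted p 5.54e-06). The log2 ratio of Cstf2 to Cstf2t rose by 1.67 with no overlap (exact p = 0.0159, adjusted 0.0317), and the last 500 bases of both genes shared no 50-base sequence with any other gene.

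Fip1l1, the CPSF subunit that contacts poly(A) polymerase (chromosome 5, 74535449 to 74598800, GRCm38), showed overlapping ages, with 224, 283, 282 and 226 normalised counts in the young and 211, 221, 264, 240 and 245 in the old libraries. The log2 fold change was -0.10 (95% confidence interval -0.34 to 0.15, adjusted p 0.481 by limma). Its ratio to Cpsf1, the largest CPSF subunit, differed by -0.11 on the log2 scale (exact permutation test, two-sided p = 0.508, adjusted 0.508), and Cpsf1 itself had a log2 fold change of 0.01 (adjusted p 0.933). Of the 9 CPSF genes and partners tested, Fip1l1 and Cpsf1 included, 3 were called higher and 3 lower (66.7% called, against 59.7% of all genes tested). The largest rise was that of the scaffold Sympk, from 74.8 ± 9.95 to 121 ± 15.0 (SD), or 0.69 on the log2 scale (adjusted p 0.000542). The largest fall was that of Cpsf4, which binds the hexamer, from 43.97 ± 4.52 to 22.2 ± 10.5 (SD), or -1.10 on the log2 scale (adjusted p 0.00598).

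Pcf11, which helps to release RNA polymerase II after cutting (chromosome 7, 92643543 to 92669934, GRCm38), was at 125, 144, 117 and 132 normalised counts in the young and at 154, 128, 136, 178 and 170 in the old libraries. Of the old libraries, 3 were above the highest young one and 2 lay within the young range. The log2 fold change was 0.23 (95% confidence interval -0.04 to 0.51, adjusted p 0.136 by limma). Its partner Clp1 was called higher, from 16.7 ± 2.89 to 27.8 ± 5.52 (SD), or 0.69 on the log2 scale (adjusted p 0.0244), on 14 to 32 reads per library. The ratio of Pcf11 to Clp1 differed by -0.46 on the log2 scale (exact permutation test, two-sided p = 0.127, adjusted 0.159), and by -0.62 without old replicate 5 (adjusted exact p 0.0476). In the list of cleavage factor IIm and termination genes, 2 of 5 were called (40.0%, beside 59.7% of all genes tested), both higher (Clp1 and Scaf8, 0.66).

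Papola, the main nuclear poly(A) polymerase (chromosome 12, 105784694 to 105838944, GRCm38), had the tightest young values of the factors, at 396, 380, 392 and 360 normalised counts, and stood at 337, 380, 422, 362 and 492 in the old libraries. The old libraries spread to both sides of the young range. The relative SD was 4.23% among young and 15.3% among old libraries, where genes with a mean of 100 to 500 normalised counts had medians of 9.42% and 14.4%. The old spread of Papola was thus near that of genes of its level, and the young spread was below it and near its counting error of 4.89%. The log2 fold change was 0.05 (95% confidence interval -0.19 to 0.28, adjusted p 0.729 by limma). Papolg, its nuclear relative, rose from 8.85 ± 4.00 to 18.95 ± 2.93 (SD), or 1.12 on the log2 scale (adjusted p 0.00915), on 4 to 22 reads per library. Young values of Papolg were 3.62 to 12.28 and old values 15.3 to 22.3. It thus met the filter of 10 normalised counts in 4 libraries through the old group, where it was high. The log2 ratio of Papola to Papolg was lower by 1.07 in old kidneys (difference -1.07, exact permutation test, two-sided p = 0.0159, adjusted 0.0317). Among the 8 polymerases tested, 3 were called higher and 2 lower (62.5% called, beside 59.7% of all genes tested), from Tent4b, which adds tails to nuclear RNA for decay (1.25, adjusted p 8.57e-08), to Tent2, a cytoplasmic tail-adding enzyme (-1.02, adjusted p 0.0201).

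**Figure D4:**
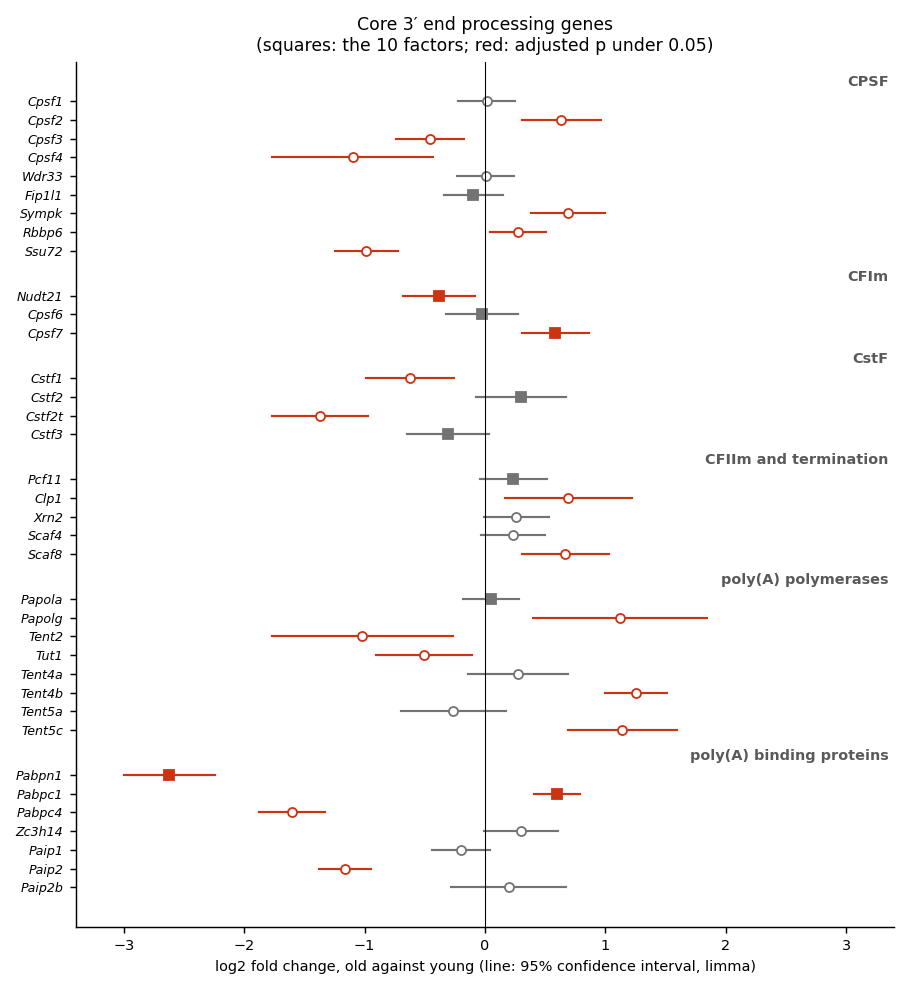
log2 fold change, old against young (x axis), with its 95% confidence interval from limma for the 36 tested genes of 3′ end processing, grouped by complex (y axis). Squares are the 10 factors, circles the other genes, and red marks an adjusted p-value under 0.05. Each group except CstF and cleavage factor IIm has called genes on both sides of 0.

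Across the 36 core genes of cutting, polyadenylation and tail binding, the 10 factors included, 21 were called (58.3%), 10 higher and 11 lower, with a median log2 fold change of 0.03, against 59.7% of all genes tested. Of the 26 that are not among the 10 factors, 17 were called. In 17 of the 36 the ages did not overlap, against 49.0% of all genes tested. These shares lie close to the background.

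The wider lists cover what happens to the RNA before and after the tail is made. Of 69 genes tested 45 were called (65.2%), 29 higher and 16 lower, against 59.7% of all genes tested (29.2% higher and 30.5% lower), so the share called lay near the background. Among deadenylases and their cofactors 12 of 18 were called (66.7%, beside the same 59.7%), 8 higher and 4 lower, from Cnot3, a subunit of the CCR4-NOT complex (log2 fold change 2.36, adjusted p 2.89e-11), to Pan2, the nuclease of the PAN complex (-1.15, adjusted p 0.000986). Among genes of nuclear poly(A) RNA decay 12 of 15 were called (80.0%, beside 59.7%), 7 higher and 5 lower, from Zfc3h1, which targets polyadenylated nuclear RNA to the exosome (1.37, adjusted p 5.87e-09), to the exosome subunit Exosc3 (-2.75, adjusted p 1.15e-06). Exosc3 had at most 9 reads in any old library. Its old values reached at most 9.84 normalised counts, so only the young libraries, where it was high, carried it past the filter of 10. Zfc3h1 rose from 230 ± 9.45 to 600 ± 80.3 (SD) normalised counts.

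Of the genes of the U1 small nuclear ribonucleoprotein, which is known to hold back early polyadenylation inside introns, 4 of 7 were called and all 4 were higher. The share called was 57.1%, beside 59.7% of all genes tested, of which 29.2% were called higher. Snrpa rose by 1.27 on the log2 scale (adjusted p 5.05e-07), from 70.7 ± 8.71 to 173 ± 24.6 (SD) normalised counts. The other called genes were Snrnp70 (0.88), Snrpc (0.88) and Luc7l (0.52), and Prpf39, Luc7l2 and Luc7l3 were not called. The median of this list was 0.52, beside -0.003 over all genes tested. In histone and small nuclear RNA 3′ processing 8 of 18 genes were called (44.4%, below the 59.7% of all genes tested), 5 higher and 3 lower, from Ints1 (1.28, adjusted p 0.000127) to Ints14 (-1.21, adjusted p 6.45e-05), both of the Integrator complex. In mRNA export 9 of 11 were called (81.8%, beside 59.7%), 5 higher and 4 lower, from the export receptor Nxf1 (0.88, adjusted p 0.000105) to Thoc7 of the THO complex (-1.55, adjusted p 7.89e-10).

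The tested genes whose centred log2 profile over the 9 libraries lay nearest to that of Pabpn1, the factor with the largest change, were Srgn, Rnf7 and Acyp1, at Euclidean distances of 0.50, 0.51 and 0.52.

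Libraries had 4486406 to 6355095 reads over the listed genes. Mitochondrial genes took 27.0% to 29.7% of the reads in young and 35.8% to 38.1% in old libraries. The mitochondrial rRNA genes alone took 2.98% to 4.46% in young and 21.8% to 25.4% in old libraries. The kidney was recognisable in both groups, since each of the 7 proximal tubule markers had at least 478 normalised counts in every library and each of the 6 markers of the loop of Henle and distal tubule at least 92.3. The summed markers of the loop of Henle and distal tubule were 11829 to 12510 normalised counts in young and 15295 to 18966 in old libraries, those of endothelium 888 to 943 and 1180 to 1410, and those of immune cells 225 to 298 and 386 to 663, where Cd79a was not listed and Cd3e was at 0 in at least 1 library. Those of the collecting duct, stroma, adipocytes, erythrocytes and proliferating cells overlapped between the ages, as did those of the proximal tubule and podocytes. Counts of single markers stand beside 29.2% of all genes tested called higher and 30.5% called lower. Of stroma 3 of 5 were called lower and none higher, and of the collecting duct 3 of 5 lower and 1 higher. Of endothelium 3 of 5 were called higher and none lower, and of immune cells 4 of 6 tested higher and none lower. The loop of Henle and distal tubule had 3 of 6 called higher and 2 lower, so its markers did not move as one. For the proximal tubule 3 of 7 were called higher and 3 lower, and for podocytes 3 of 5 higher and 1 lower. The part of these shifts and of the mitochondrial rRNA share in the levels of the factors was not tested.

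With the libraries scaled to equal totals of non-mitochondrial reads, the median log2 fold change of all genes moved to 0.14. Under that scaling Pabpn1 was at -2.48, Pabpc1 at 0.74 and Cpsf7 at 0.73, each still called. Nudt21 was at -0.24 (adjusted p 0.161) and Cpsf6 at 0.12, neither called, and Pcf11 (0.38, 0.0173) and Cstf2 (0.44, 0.0359) were then called. Removing the trend of level on annotated transcript length left Pabpn1 at -2.36, Pabpc1 at 0.70, Cpsf7 at 0.61 and Nudt21 at -0.57, each called, and added Cpsf6 (-0.37, 0.0396) and Fip1l1 (-0.28, 0.0402), both lower. Pabpn1, Pabpc1 and Cpsf7 kept their direction and their call under all 21 alternatives.

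**Figure D5:**
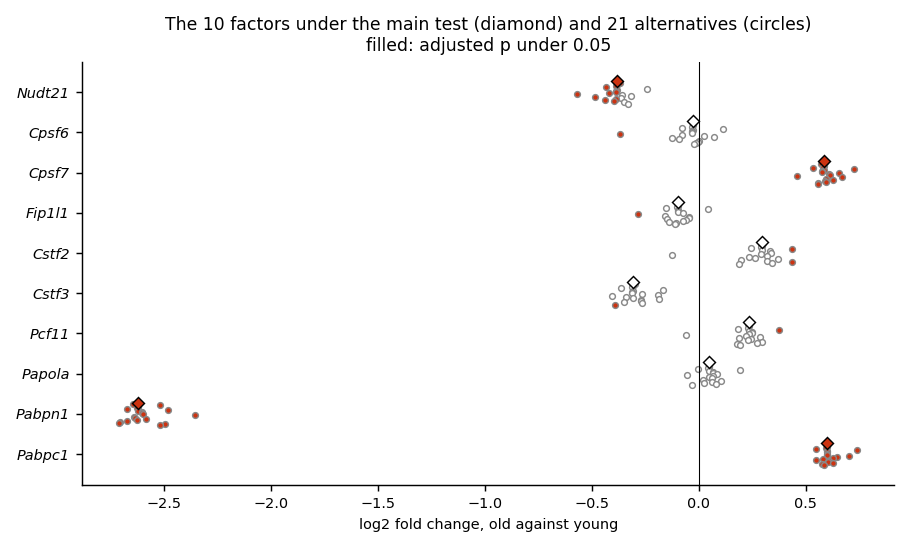
log2 fold change, old against young (x axis), of each factor (y axis) in the main test (diamond) and under 21 alternatives (circles), filled where the adjusted p-value was under 0.05. Pabpn1 stays between -2.71 and -2.36, Pabpc1 between 0.55 and 0.74 and Cpsf7 between 0.46 and 0.73, while Cpsf6, Fip1l1, Cstf2, Pcf11 and Papola have circles on both sides of 0.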

How the data were processed

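Kidney RNA of 9 mice was reverse transcribed from oligo(dT) with a stranded kit for transcript ends. The labels name a later kit version than the methods of the study, and give a single RNA integrity statement for all libraries (mean 7.5, range 7.4 to 7.6). Per the labels and the methods, the authors checked reads with FastQC 0.11.7, aligned them to GRCm39 with TopHat2 2.0.10 and counted stranded reads in GENCODE vM26 genes with HTSeq 0.6.1. The deposited values are a signal, namely read counts divided by 1 DESeq size factor per library. Dividing each library by its smallest positive value gave whole reads for 100% of values (tolerance 0.001). Genes with few reads had been removed by a rule not given in the sources used here, and the lowest gene mean was 4.49 normalised counts. A floor of 3 reads was 4.72e-05% of the deepest and 6.69e-05% of the shallowest library, for counting error only.

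Old was tested against young with limma 3.58.1 (variance trend, R 4.3.3) on log2(normalised count + 1), with no covariate, over genes that reached 10 normalised counts in 4 or more libraries. p-values were Benjamini-Hochberg adjusted over all genes tested, and a gene with an adjusted p-value under 0.05 is referred to as called. Ratios of paired factors were tested by exact permutation of the libraries (scipy 1.17.1), adjusted over the pairs. The label of each library gave its age, and replicate numbers only follow listing order. p-values measure the spread between these mice, taking each library as 1 mouse. Alternatives were 2 pseudocounts, 2 filters, 3 scalings, robust limma, edgeR 4.0.16 and DESeq2 1.42.0 on the whole reads, thinned reads, a transcript length correction and leaving out each library. On the whole reads edgeR called 7648 and DESeq2 7532 genes, beside 7568 by limma. The limma fit was tested on simulated data.

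Genes named are the 10 factors, the genes paired with them, and the called genes with the largest rise and fall in each list of related genes, with further list members named after their values were seen. The factors and lists were chosen with earlier results of these data known. For positions, transcript ends and shared sequence GENCODE vM21 (GRCm38) was used, matched by symbol for 98.1% of genes, an older build than that of the files.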

Additional observations from a re-analysis of the deposited data

Results flagged for a closer look

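In 40 groups of 4 or 5 libraries (the 10 factors and the 10 ratios at each age), 3 held a library whose gap to its nearest neighbour was a large share of the group's range. Chance flags about 1 in 20 groups, here about 2. In old replicate 1 Cpsf6 had a log2 level of 7.33, while the rest of the old group lay at 6.95 to 7.04, which made the gap 0.766 of the range. That library also had a log2 ratio of Cpsf6 to Cpsf7 of -0.12, against -0.71 to -0.61 for the rest, with a gap of 0.825. Leaving it out changed the difference in this ratio between the ages to -0.72, which passed the correction (adjusted exact p 0.0476). For the log2 ratio of Cstf2 to Cstf3, young replicate 1 had 0.39 and the rest of the young group -0.12 to -0.06, a gap of 0.898.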

How the results depend on the processing

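The design held no pairs to analyse, as the young and old libraries came from different mice. Pabpn1, Pabpc1 and Cpsf7 kept direction and call under all 21 alternatives, and 3 to 6 factors were called (3 to 5 without 1 library). Without mitochondrial genes and with the rest scaled, Nudt21 lost its call (-0.24), Pcf11 (0.38) and Cstf2 (0.44) gained one, Cpsf6 (0.12) and Fip1l1 (0.043) changed direction, and 4 factors were called higher and 1 lower, beside 35.4% and 25.1% of all genes. With the length trend removed, Cpsf6 (-0.37) and Fip1l1 (-0.28) were called, Pcf11 (-0.059), Cstf2 (-0.12) and Papola (-0.056) changed direction, and 4 factors were called lower and 2 higher, beside 29.7% and 27.7% of all genes. Scaled to the table total, Papola was at -0.0044. The causes of these changes were not tested.

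Leaving out 1 library gave log2 fold changes of -0.49 to -0.32 for Nudt21, -0.13 to 0.072 for Cpsf6 (reversed without young replicate 2, at 0.027, young replicate 3, at 0.072, or old replicate 2, at 0.0022), 0.19 to 0.44 for Cstf2, -0.41 to -0.19 for Cstf3, -0.16 to -0.044 for Fip1l1 and -0.031 to 0.11 for Papola (reversed without old replicate 5), with 1 to 2 factors called lower. Testing only genes with means from 100 normalised counts upwards, and so fewer genes, called 12 of 24 core genes (6 higher, 6 lower) and 22 of 30 wider genes, 2 of them lower, against 72.5% of all genes so tested (36.1% higher, 36.4% lower). Of the same 24 and 30 genes the main test also called 12 and 22.

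Leaving out 1 library gave 0 to 6 ratio pairs past the correction. With 8 libraries the smallest exact p is larger, and whether it passes depends on how many pairs reach it. The 5 called pairs then had adjusted p-values of 0.0476 to 0.0714. The ratio of Fip1l1 to Cpsf1 ranged from -0.21 to 0.0075 and changed direction without young replicate 2. At 33 to 59 reads in old libraries the size of the fall of Pabpn1 is set by few reads, and levels of Clp1 and Papolg rest on fewer.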
